A study of Mus musculus with 6 samples.

Results

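The thioredoxin and peroxiredoxin system was followed through bulk RNA-seq of hematopoietic stem and progenitor cells (HSPCs) from WT and ING4-/- mice. The 10 genes were taken as a named list, the thioredoxins Txn1 and Txn2, the reductase Txnrd1, the inhibitor Txnip and the peroxiredoxins Prdx1 to Prdx6, out of 49315 genes in the count files. GENCODE's annotation of GRCm38 holds all 10, and all 10 passed the filter on low counts. On GRCm38 Txn1 lies on chromosome 4 from 57943373 to 57956411, Txnrd1 on chromosome 10 from 82859206 to 82897724, Txnip on chromosome 3 from 96557957 to 96561883 and Prdx1 on chromosome 4 from 116685544 to 116700822. The others lie on chromosomes 15 (Txn2), 8 (Prdx2), 19 (Prdx3 and Prdx5), X (Prdx4) and 1 (Prdx6), all as protein-coding genes, with counts taken over their exons.

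There were 6 libraries, 1 for each genotype of long-term stem cells (LT-HSCs), short-term stem cells (ST-HSCs) and multipotent progenitors (MPPs), and values below follow that order. All were lineage-negative cells with Sca-1 and c-Kit. LT-HSCs and ST-HSCs carried CD150 and no CD48 and were told apart by CD34, absent on the former, while MPPs carried CD34 without CD150 or CD48. The controls were young adult WT C57BL/6 mice. The ING4-/- mice, from a colony kept by the authors, lack ING4, a chromatin reader of the inhibitor of growth family, and neither genotype was treated. Their strain background is not given in the sources used here, nor is their age for RNA-seq. The paper states an age for ING4-/- mice, that of the controls, in a separate drug assay. For each library, marrow of 8 to 10 mice was pooled and lineage depleted, and 1000 to 10000 cells were sorted, so a library is 1 pool. In the genotype comparison the 3 populations stood in for replicates, as in the comparison that the study made, and p-values measure the spread between these libraries only.

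Thioredoxins are small proteins that reduce disulfides in other proteins and are returned to the reduced state by thioredoxin reductase, a selenoprotein that draws on NADPH. Peroxiredoxins are abundant peroxidases that destroy hydrogen peroxide, and most of them are recharged by thioredoxin. In the marrow, stem cells with long-term activity are known for low levels of reactive oxygen species, and Txnip, which binds and inhibits thioredoxin, is known to be abundant in them.

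The bases before the gene start are shown for the 4 genes on which the results turn, namely Txn1 and Prdx1, which followed each other most closely, Txnrd1, and Txnip, which followed none of the others. The sequences are from RefSeq (GRCm38.p6), 5′ to 3′ on the strand of the gene, and capitals mark matches to 5 motifs searched on both strands. RefSeq promoter entries were found for 9 of the 10 genes, all but Prdx6. Txn1 lies on the minus strand (chr4:57956412-57956661), and Txnrd1 (chr10:82858956-82859205), Txnip (chr3:96557707-96557956) and Prdx1 (chr4:116685349-116685543) lie on the plus strand.
Txn1: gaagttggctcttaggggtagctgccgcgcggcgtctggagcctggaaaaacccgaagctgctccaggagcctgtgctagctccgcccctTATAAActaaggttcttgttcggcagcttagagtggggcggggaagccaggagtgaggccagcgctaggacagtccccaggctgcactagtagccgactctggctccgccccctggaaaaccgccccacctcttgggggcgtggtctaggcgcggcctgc
Txnrd1: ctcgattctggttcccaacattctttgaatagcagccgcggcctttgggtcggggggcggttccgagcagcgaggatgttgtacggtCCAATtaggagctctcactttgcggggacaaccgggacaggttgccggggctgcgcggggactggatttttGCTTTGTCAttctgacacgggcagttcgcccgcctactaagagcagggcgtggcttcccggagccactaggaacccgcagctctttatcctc
Txnip: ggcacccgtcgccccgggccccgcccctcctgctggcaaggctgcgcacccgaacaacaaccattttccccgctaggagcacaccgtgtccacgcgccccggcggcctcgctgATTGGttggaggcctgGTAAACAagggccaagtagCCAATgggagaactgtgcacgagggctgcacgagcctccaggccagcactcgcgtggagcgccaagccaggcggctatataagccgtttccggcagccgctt
Prdx1: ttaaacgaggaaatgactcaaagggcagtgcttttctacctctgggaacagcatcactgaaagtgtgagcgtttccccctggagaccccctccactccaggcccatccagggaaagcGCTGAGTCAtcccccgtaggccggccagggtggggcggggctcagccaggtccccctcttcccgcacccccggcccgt

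Each stretch ends on the base before the gene start in the count files, which left 195 bases for Prdx1 and 250 for the others. RefSeq lists 3 starts for Txnrd1, and the one shown is that of the counted gene. The antioxidant response element TGACNNNGC, the site bound by Nrf2 with small Maf proteins, was found in the promoters of Txnrd1, beginning 92 bases before the start, and of Prdx1, beginning 133 bases before the RefSeq start. It occurs in 10.2% of all 32851 RefSeq promoter windows of 250 bases. The Txnip window held the CCAAT box on both strands and the forkhead motif TGTTTAC, which is present in 3.17% of windows. The CCAAT box was also found in the windows of Txn2, Txnrd1 and Prdx4 and is present in 33.85% of windows. The motif TATAAA was found upstream of Txn1, Prdx1 and Prdx3 and in 12.4% of windows, and in Prdx1 it lies past the bases shown. The E-box CACGTG, to which Mlx proteins bind, was found in the window of Prdx4 alone among the 9 genes and in 6.02% of windows. The Prdx4 window (chrX:155338461-155338710) is upstream of a RefSeq start. It lies inside the counted gene, which runs from 155323918 to 155340754 on the minus strand. No 2 of these matches overlapped, and a match describes the letters of the window and not a bound site.

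The WT libraries stood apart from the ING4-/- libraries before any gene was compared. Total counts were 7839326 to 9363442 in WT and 35596876 to 39192588 in ING4-/-. The 1915 olfactory and vomeronasal receptor genes, which blood cells are not known to use, held 18.3 to 22.9 counts per kb of exon in WT and at most 0.0800 in ING4-/-. Spread over all genes by exonic length, this background makes up 22.8% to 33.7% of WT counts and at most 0.0263% of ING4-/- counts. Depth, background and genotype cannot be told apart in this design, so the genotype difference of each of the 10 genes is also given with the background subtracted, that is, with the counts expected from a gene's length taken away. Ing4, the targeted gene, was counted 247, 162 and 247 times in WT and 0, 24 and 76 times in ING4-/-. Its log2 fold change was -4.49 (SE 1.56, adjusted p = 0.0373, edgeR's quasi-likelihood test), with an adjusted p of 0.0783 when population was a block. Background alone would give 48.7%, 75.3% and 39.4% of its WT counts, and with the background subtracted the call was lost, at -4.23 (SE 1.72, adjusted p = 0.0870, edgeR). The call was also lost with upper-quartile normalization (adjusted p = 0.0544, edgeR) and when any 1 WT library or the ING4-/- ST-HSC library was left out (adjusted p of 0.0660 to 0.0830, edgeR). Slamf1, which encodes CD150, was at 104 CPM (counts scaled to the size of the library, with TMM factors) in WT LT-HSCs and 33.0 in WT MPPs and at 111 and 8.81 in ING4-/-, in the order of the sorts, and Kit was at 378 CPM or more in every library. Cd48, whose product all sorts excluded, was at 5.27, 16.6 and 36.9 CPM in WT and at 0, 34.1 and 127 CPM in ING4-/-, highest in the ING4-/- MPP library. Markers of granulocytes and monocytes summed to 438.5 to 699 CPM in WT and 1197 to 1434 CPM in ING4-/- (644 to 937 and 1006 to 1232 with the background subtracted), with Csf1r at 0 in every ING4-/- library. Erythroid markers summed to 57.6 to 224 CPM against 111 to 275, B cell markers to 103 to 118 against 92.0 to 132 and T and NK cell markers to 82.6 to 161 against 61.5 to 308. Markers at 0 in every ING4-/- library also included Alas2 and Ermap (erythroid), Cd79a, Ebf1, Pax5 and Ms4a1 (B cell) and Cd3e, Cd3g, Cd8a and Trac (T cell), and none of the markers was at 0 in all WT libraries. The 12 HSPC markers summed to 2245 to 3318 CPM in WT and 3211 to 4860 CPM in ING4-/-, and with the background subtracted to 3387 to 4531 CPM in WT and 2698 to 4176 CPM in ING4-/-, so the genotype with the higher range changed and the ranges overlapped on both scales. The part of these cells in the results below was not tested.

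In the comparison of genotypes, 9 of the 10 genes had every ING4-/- library above every WT library, and the exception was Txnip. By the call rule, an adjusted p under 0.05 with an absolute log2 fold change over 1, 8 of the 10 rose in ING4-/- and none fell (edgeR, Benjamini-Hochberg adjusted over 31001 genes, also none lower at an unadjusted p under 0.05). Of all genes tested, 7.98% were called higher and 56.7% lower, and 12.0% had every ING4-/- library above and 62.9% every ING4-/- library below those of WT. By the adjusted p alone 9 of the 10 were higher, against 9.6% of all genes. The median log2 fold change was 1.65 for the 10 genes and -6.85 for all genes tested. That median of all genes was -7.17 when scaled by DESeq2's size factors and -6.35 by the upper quartile, so fold changes are relative to the scaling. The number of all genes called higher was 2475 with TMM, 1342 with DESeq2's size factors and 4556 with the upper quartile. Of the 10 genes, 8, 7 and 10 were called higher in that order. When 10 counts were required in each of the 6 libraries, 9673 genes were left with a median of 0.020, the median of the 10 genes was 1.16, and 5 of the 10 were called higher, against 8.3% of those genes higher and 9.68% lower. After background subtraction 5 were called higher, Txn1, Prdx1, Prdx2, Prdx4 and Prdx5, against 5.64% of 19672 genes higher and 38.6% lower. In bulk RNA, fewer cells of a type and less RNA per cell cannot be told apart.

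**Figure D1:**
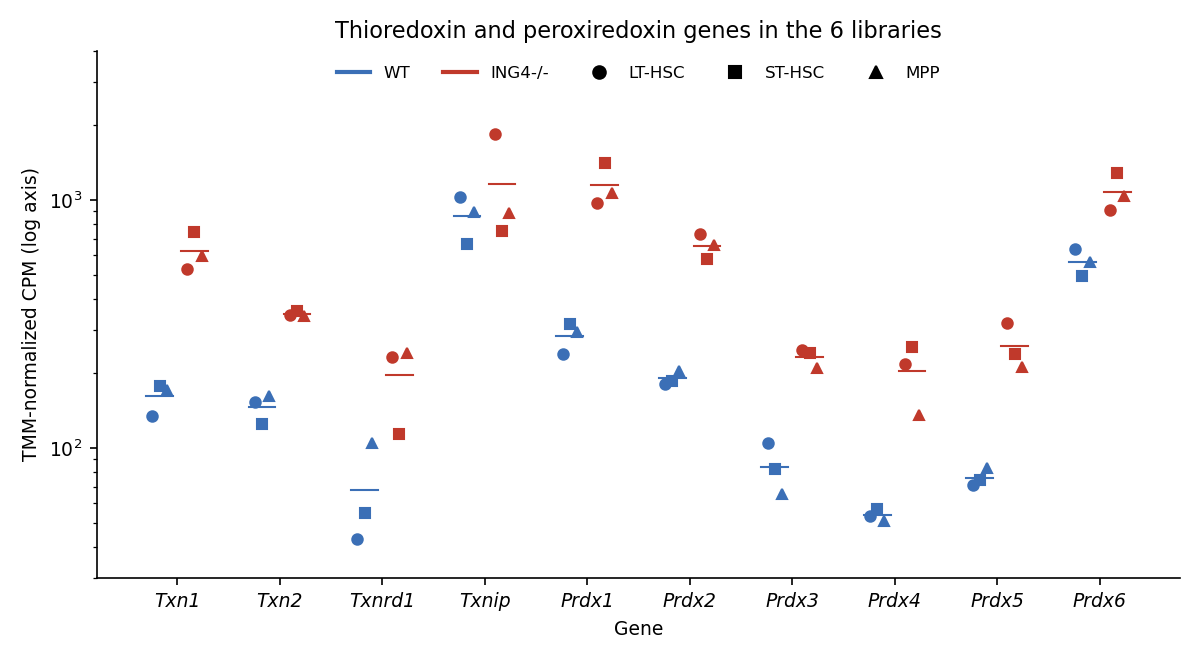
TMM-normalized CPM on a log axis for each gene in the 6 libraries, with WT in blue, ING4-/- in red and a symbol for each population. Horizontal lines are means of 3 libraries. The red points lie above the blue points for 9 of the 10 genes, and for Txnip the range of 753 to 1841 CPM in ING4-/- overlaps that of 668 to 1029 CPM in WT.

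Txn1 encodes the thioredoxin of the cytosol and nucleus. It was at 135, 178 and 172 CPM in WT and at 529, 744 and 595 CPM in ING4-/-. The lowest ING4-/- library was above the highest WT library. The means were 162 ± 23.2 and 623 ± 110.1 CPM (SD, n = 3), a log2 fold change of 1.95 (SE 0.20, adjusted p = 6.6e-04, edgeR). Background subtraction gave 1.14 (SE 0.19, adjusted p = 0.00240, edgeR), and 1.04 when 10 counts were also required in each library. With the trend of fold change on gene length removed as well, it was 0.39 (SE 0.20, adjusted p = 0.292, edgeR). That count minimum holds wherever a value below has the length trend removed.

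Txn2, the thioredoxin of mitochondria, had a smaller log2 fold change than Txn1 with the counts as deposited and after background subtraction, and a larger one, 0.47 against 0.39, once the length trend was removed as well. Its CPM values were 153, 125 and 163 in WT and 343, 356 and 339.8 in ING4-/-, so the ING4-/- libraries differed from one another by less than the WT libraries did. The log2 fold change was 1.24 (SE 0.17, adjusted p = 7.1e-04, edgeR) for means of 147 ± 19.5 and 346 ± 8.51 CPM (SD, n = 3). Txn2 passed the adjusted p with the background subtracted but not the fold limit, at 0.52 (SE 0.16, adjusted p = 0.0294, edgeR), and it fell below that limit in 10 of 19 alternatives. Relative to Txn1 in the same library, per kb of exon, the log2 ratio of Txn2 went from -2.14 (SD 0.35, n = 3) in WT to -2.83 (SD 0.22, n = 3) in ING4-/-. The difference of -0.70 had an exact two-sided permutation p of 0.1, the smallest that 3 against 3 libraries allow, and it was -0.62 with the background subtracted.

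Txnrd1, the cytosolic reductase that recharges Txn1, varied widely among the libraries of a genotype. It was at 43.2, 54.7 and 105 CPM in WT and at 234, 114 and 242 CPM in ING4-/-. The lowest ING4-/- library, ST-HSC, was just above the highest WT library, MPP. The log2 fold change of 1.54 (SE 0.44, adjusted p = 0.0164, edgeR) lost its call without the WT ST-HSC library, with an adjusted p of 0.0547. After background subtraction it was 0.92 (SE 0.45, adjusted p = 0.143, edgeR), and the groups overlapped on that scale. Background could account for 18.8% of the Txnrd1 counts in WT LT-HSCs, the highest share for any of the 10 genes in any library. The ratio of Txnrd1 to Txn1 within a library differed by -0.37 on the log2 scale between genotypes (exact permutation p = 0.6, n = 3 and 3), and by -0.19 with the background subtracted.

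Txnip, the thioredoxin-interacting protein, is an alpha-arrestin that binds reduced thioredoxin and also restrains glucose uptake. It was at 1029, 668 and 896 CPM in WT and at 1841, 753 and 887 CPM in ING4-/-. The ING4-/- LT-HSC library stood above the other 5, and the ING4-/- MPP library was below 2 of the 3 WT libraries. The log2 fold change of 0.42 (SE 0.36, adjusted p = 0.338, edgeR) did not pass the test, and it was -0.36 (SE 0.36, adjusted p = 0.476, edgeR) with the background subtracted. Without the ING4-/- LT-HSC library it was -0.049. With upper-quartile normalization Txnip was called, at 1.02 (SE 0.36, adjusted p = 0.0377, edgeR), so its call depended on the scaling and its direction on how background and low counts were treated.

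Set against Txn1 in the same library, Txnip differed between the genotypes without overlap. Among genes with 10 or more counts in each library, Txn1 was at percentile 95.2 of the log2 fold changes and Txnip at 46.3. Most of those genes thus had a lower log2 fold change than Txn1. The share of them whose ratio to Txn1 does not overlap was not counted. The log2 ratio of Txnip to Txn1 per kb was 1.36, 0.34 and 0.81 in WT and 0.23, -1.55 and -0.996 in ING4-/-. WT cells held more Txnip than Txn1 in all 3 populations, and ING4-/- cells held less in 2 of 3. The difference of the means was -1.61 and the exact two-sided permutation p was 0.1, again the smallest possible. A ratio within a library does not depend on the scaling, and it was -1.62 with the background subtracted. The genes differ in length, at 3123 and 1051 exonic bases, and removing the length trend brought them closer. The fitted log2 fold changes of Txnip and Txn1 were -0.073 and 1.44 with the count minimum alone, -0.072 and 0.89 with the length trend removed too, and -0.56 and 0.39 with the background subtracted as well. Exons of Txnip share 19.4% of their bases with Gm15441 on the opposite strand, and since the strand setting of the counting is not given in the sources used here, reads of the pair cannot be told apart there. Gm15441 itself had 95, 27 and 21 counts in WT, beside 37.9, 38.4 and 30.6 that the background alone would give, and 67, 88 and 68 in ING4-/-, so no fold is given for it.

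Prdx1, the cytosolic 2-cysteine peroxiredoxin, had the largest log2 fold change of the 10 genes with the counts as deposited. Its CPM values were 239, 317 and 293 in WT and 971, 1414 and 1066 in ING4-/-, lowest in LT-HSCs and highest in ST-HSCs in both genotypes. The means of 283 ± 39.8 and 1150.3 ± 233 CPM (SD, n = 3) gave a log2 fold change of 2.02 (SE 0.20, adjusted p = 6.6e-04, edgeR). It remained at an adjusted p under 0.05 in all 19 alternatives, with 1.23 (SE 0.19, adjusted p = 0.00217) after background subtraction and 0.99 (SE 0.23, adjusted p = 0.0337) when the length trend was removed too. Of the 31-base words in Prdx1 transcripts, 17.6% also occur in other annotated genes, most often in Gm21399. How reads with such words were counted is not given in the sources used here.

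Prdx2, the cytosolic peroxiredoxin known for its abundance in red cells, was at 182, 186 and 204 CPM in WT and 729, 576 and 662 CPM in ING4-/-. The WT libraries lay close together and all ING4-/- libraries were far above them. Its log2 fold change was 1.78 (SE 0.16, adjusted p = 6.6e-04, edgeR), then 1.02 (SE 0.16, adjusted p = 0.00217) with the background subtracted and 0.80 (SE 0.21, adjusted p = 0.0497) with the length trend removed as well. Exons of Prdx2 overlap Junb and Rnaseh2a on the opposite strand over 11.5% of their bases, and 16.5% of its 31-base words occur in other genes.

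Prdx3 is the thioredoxin-dependent peroxidase of the mitochondrial matrix and Prdx5 is found in mitochondria, peroxisomes and cytosol. Prdx3 was at 105, 82.4 and 65.1 CPM in WT and 249, 241 and 210.0 CPM in ING4-/-, with LT-HSCs highest and MPPs lowest in each genotype. Prdx5 was at 70.9, 74.1 and 83.3 CPM in WT and 319, 241 and 212 CPM in ING4-/-, so LT-HSCs were lowest in WT and highest in ING4-/-. The log2 fold changes were 1.47 (SE 0.23, adjusted p = 0.00107, edgeR) for Prdx3 and 1.76 (SE 0.22, adjusted p = 6.6e-04, edgeR) for Prdx5. Prdx3 was no longer called with the background subtracted, at 0.70 (SE 0.25, adjusted p = 0.0587, edgeR), whereas Prdx5 was, at 1.04 (SE 0.23, adjusted p = 0.00674, edgeR). The difference between those 2 genes was not tested. Exons of Prdx5 share 19.1% of their bases with Trmt112 on the opposite strand, and those of Prdx3 overlap no other annotated gene. The log2 ratio of the mitochondrial Prdx3 to the cytosolic Prdx1 per kb was -0.73 in WT and -1.25 in ING4-/-, a difference of -0.52 (exact permutation p = 0.2, n = 3 and 3), or -0.50 with the background subtracted. By library the ratio was -0.15, -0.90 and -1.13 in WT and -0.92, -1.51 and -1.30 in ING4-/-, so lower in ING4-/- within each population. The permutation did not use this pairing.

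Prdx4, the peroxiredoxin of the endoplasmic reticulum, was at 53.2, 56.6 and 50.8 CPM in WT and 218, 256 and 137 CPM in ING4-/-. The WT values were nearly flat over the populations, and the ING4-/- MPP library was well below the ING4-/- stem cell libraries. The log2 fold change was 1.93 (SE 0.28, adjusted p = 7.6e-04, edgeR) and 1.23 (SE 0.28, adjusted p = 0.00796, edgeR) with the background subtracted. Prdx6, the 1-cysteine peroxiredoxin that uses glutathione in place of thioredoxin, was at 635, 494 and 561 CPM in WT and 910.3, 1281 and 1034.5 CPM in ING4-/-. Its log2 fold change of 0.93 (SE 0.18, adjusted p = 0.00252, edgeR) passed the adjusted p and missed the fold limit. On the scale of TPM, which corrects for gene length, the Prdx6 groups overlapped after background subtraction, and the log2 fold change was 0.13 (SE 0.16, adjusted p = 0.553, edgeR).

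**Figure D2:**
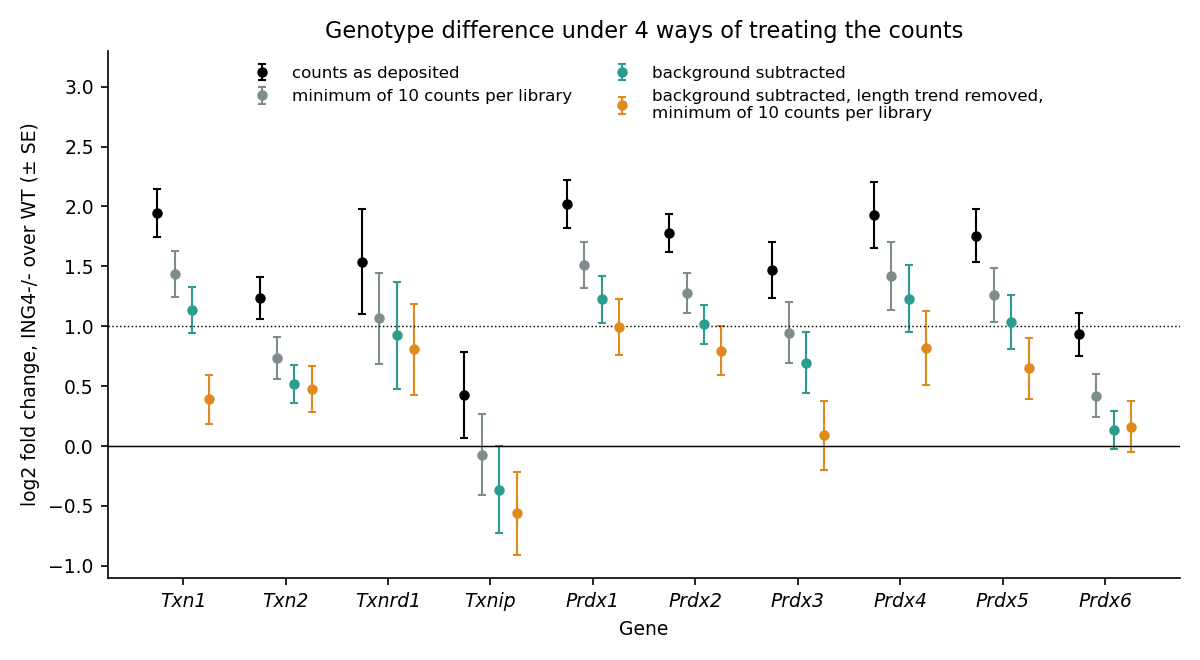
Log2 fold change of ING4-/- over WT for each gene with its standard error, from edgeR on all 6 libraries under 4 treatments of the counts. The dotted line marks the fold limit of the call rule, a log2 fold change of 1. With the counts as deposited 8 genes lie above it, and with background subtracted, the length trend removed and 10 counts required in each library none does, from 0.99 for Prdx1 down to -0.56 for Txnip.

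Fold changes in these libraries moved with the length of the gene. For the 9673 genes above, the median log2 fold change went from 0.89 in the shortest of 10 length bins to -1.28 in the longest. The 10 genes have 1051 exonic bases (Txn1) to 4804 (Prdx6). Within its own length bin, Prdx1 was at percentile 97.1 of the log2 fold changes, Prdx4 at 95.4, Prdx2 at 93.8, Prdx5 at 92.2 and Txnrd1 at 90.2. Txn2 was at percentile 85.4, Prdx6 at 78.5, Txn1 at 75.9, Prdx3 at 66.5 and Txnip at 29.8. With the minimum of 10 counts in each library, background subtraction left 3 of the 10 called, all higher. Of the 8073 genes tested there, 321 were called higher and 472 lower. When the length trend was removed as well, none of the 10 was called by edgeR and the median of their log2 fold changes was 0.56. At an unadjusted p under 0.05 there were 5 higher and none lower, 2 of them at an adjusted p under 0.05 (Prdx1 and Prdx2, against 2.59% of 8073 genes higher at that limit). By the full call rule 2.02% of those genes were higher and 3.11% lower.

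**Figure D3:**
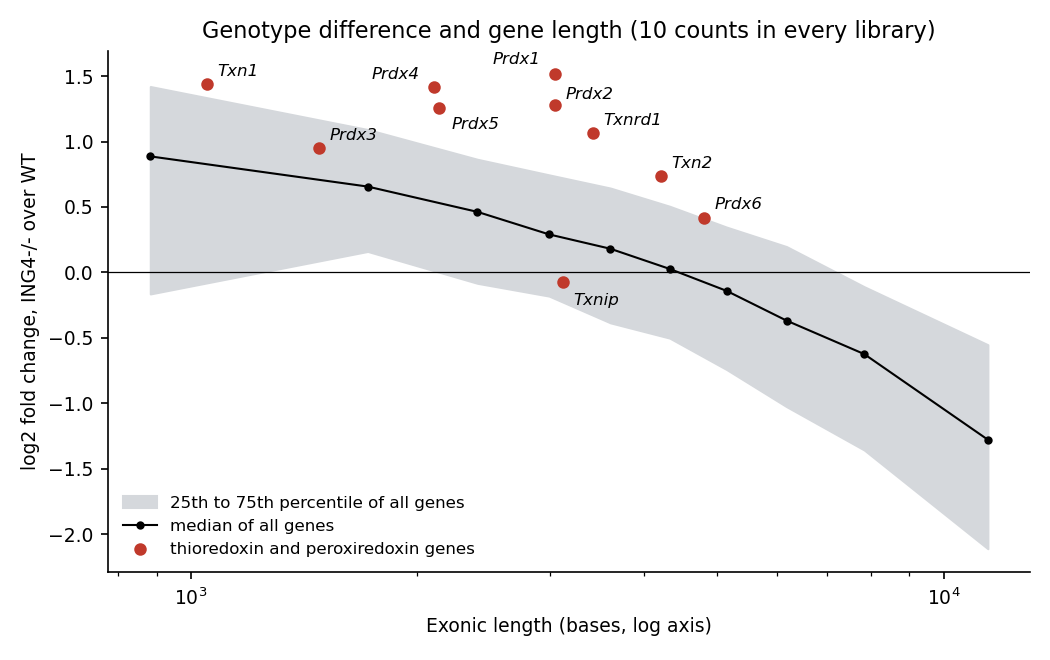
Log2 fold change of ING4-/- over WT against exonic length (log axis) for genes that had 10 or more counts in each library. The line and band give the median and the 25th to 75th percentiles of all genes in 10 length bins, and red points are the named genes. Txnip lies under the median of its bin, 0.29, and the other 9 lie above the medians of theirs.

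Within a population each genotype has a single library, so its ratio has no replicate check, and the intervals (95%, exact) cover counting error only. The median log2 ratio of the 10 genes was 1.98, 1.59 and 1.39 for the LT-HSC, ST-HSC and MPP pair. Genes with 10 or more counts in each library had medians of 0.55, 0.59 and 0.37, and 35.7%, 36.0% and 25.1% of them had a log2 ratio over 1. Of the 10 genes, 8, 9 and 8 had a ratio over 1, and 9 were higher in ING4-/- in all 3 populations, as were 44.74% of the genes with 10 counts. Background subtraction brought the medians of the 10 genes to 1.24, 0.70 and 0.75, and those of the genes with 10 counts to 0.41, 0.31 and 0.056.

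Txnrd1, Txnip, Prdx5 and Prdx6 differed most between the populations in these ratios. The log2 ratio of Txnrd1 was 2.43 (2.29 to 2.58) in LT-HSCs, 1.06 (0.93 to 1.20) among ST-HSCs and 1.20 (1.11 to 1.29) among MPPs. That of Txnip was 0.84 (0.81 to 0.87), 0.17 (0.13 to 0.21) and -0.014 (-0.048 to 0.020) in the same order. The ratio was thus highest in LT-HSCs for both the reductase and the inhibitor. Prdx5 also had its highest value in LT-HSCs, with 2.17 (2.06 to 2.28), 1.70 (1.59 to 1.81) and 1.35 (1.24 to 1.45). Prdx6 had its lowest ratio in LT-HSCs, 0.52 (0.48 to 0.56), against 1.38 (1.33 to 1.42) in ST-HSCs and 0.88 (0.84 to 0.92) in MPPs. After background subtraction the values of Txnrd1 were 1.95, 0.35 and 0.56, those of Prdx5 were 1.49, 0.85 and 0.69, those of Prdx6 were -0.24, 0.45 and 0.18, and those of Txnip were 0.065, -0.77 and -0.73. Whether any of these ratios differs between populations was not tested, as there is no second library of any population.

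**Figure D4:**
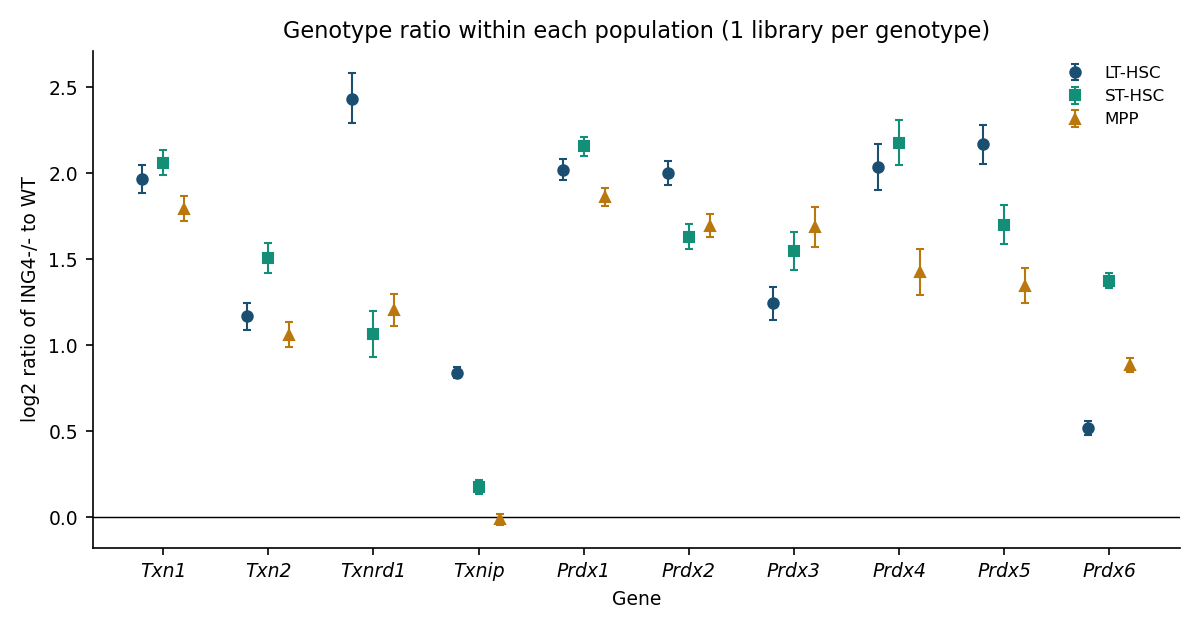
Log2 ratio of ING4-/- to WT in LT-HSCs, ST-HSCs and MPPs for each gene, from TMM-normalized counts of 1 library per genotype, with 95% exact intervals for counting error. Txnrd1 reaches 2.43 in LT-HSCs, and Txnip lies nearest to 0 in all 3 populations except for Prdx6 in LT-HSCs.

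Between populations, with genotype as a term, none of the 31001 genes was called in any of the 3 contrasts (edgeR's quasi-likelihood test, the only tool run on them), which share libraries. At an unadjusted p under 0.05 there were 616 genes (1.99%) for ST-HSC against LT-HSC, 561 (1.81%) for MPP against LT-HSC and 187 (0.603%) for MPP against ST-HSC. Among the 10 genes, 3, 1 and 0 passed that limit. Txnip had a log2 fold change of -0.98 (SE 0.24, unadjusted p = 0.00868, adjusted p = 1, edgeR) in ST-HSCs against LT-HSCs and of -0.64 (SE 0.24, unadjusted p = 0.0424, adjusted p = 1.00, edgeR) in MPPs against LT-HSCs. With the background subtracted they were -0.98 and -0.73. Without the ING4-/- LT-HSC library they were -0.58 and -0.25, and without the WT LT-HSC library -1.41 and -1.14. Txnip was highest in LT-HSCs in both genotypes. Prdx1 and Txn1 were the others, at 0.48 (unadjusted p = 0.0278, edgeR) and 0.45 (unadjusted p = 0.0466, edgeR) in ST-HSCs against LT-HSCs, and both were lowest in LT-HSCs in each genotype. None of these passed the adjustment.

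Levels of different genes were compared per length, as TPM after background subtraction. This scale divides counts by exonic length before it scales to the library. It does not remove the trend of genotype fold changes on gene length. Txn1 is the shortest of the 10 genes, and its log2 fold change was 0.39 with that trend and the background removed. In WT the order began with Txnip at 789 ± 237 TPM (SD, n = 3), then Txn1 at 426 ± 23.7, Prdx6 at 329 ± 74.2 and Prdx1 at 256 ± 14.7. Txnip did not overlap Txn1, whereas Txn1 overlapped Prdx6 and Prdx6 overlapped Prdx1. Txnrd1 was lowest, at 48.8 ± 25.2 TPM, and overlapped Prdx4 at 65.9 ± 6.15. In ING4-/- the order began with Txn1 at 997 ± 158 TPM, which did not overlap Prdx1 at 636 ± 119. Txnip, at 635 ± 352 TPM, overlapped Txn1, Prdx1 and also Prdx6, which was at 376 ± 58.8. By its mean Txnrd1 was again lowest, at 97.3 ± 36.1 TPM, and it did not overlap Txn2 at 139 ± 6.38. It overlapped Prdx4 at 164 ± 51.2 TPM and was above it in ING4-/- MPPs, at 115 against 106 TPM.

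The summed level of the 10 genes was 2797, 2103 and 2391.5 TPM in WT and 4256, 3967 and 3411 TPM in ING4-/-. The length trend was not removed from these sums or from the shares of them. Txnip took 37.0%, 26.8% and 32.1% of the summed level in WT and 24.4%, 10.1% and 13.6% in ING4-/-. Txn1 took 14.3%, 21.1% and 18.2% in WT and 20.9%, 29.7% and 27.1% in ING4-/-. The Txnip shares of the genotypes did not overlap, and the Txn1 shares did, since WT ST-HSCs were above ING4-/- LT-HSCs. On this scale 7 of the 10 genes had every ING4-/- library above every WT library, against 26.3% of the genes with 10 counts (11.6% had every one below), and Txnrd1, Txnip and Prdx6 overlapped.

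**Figure D5:**
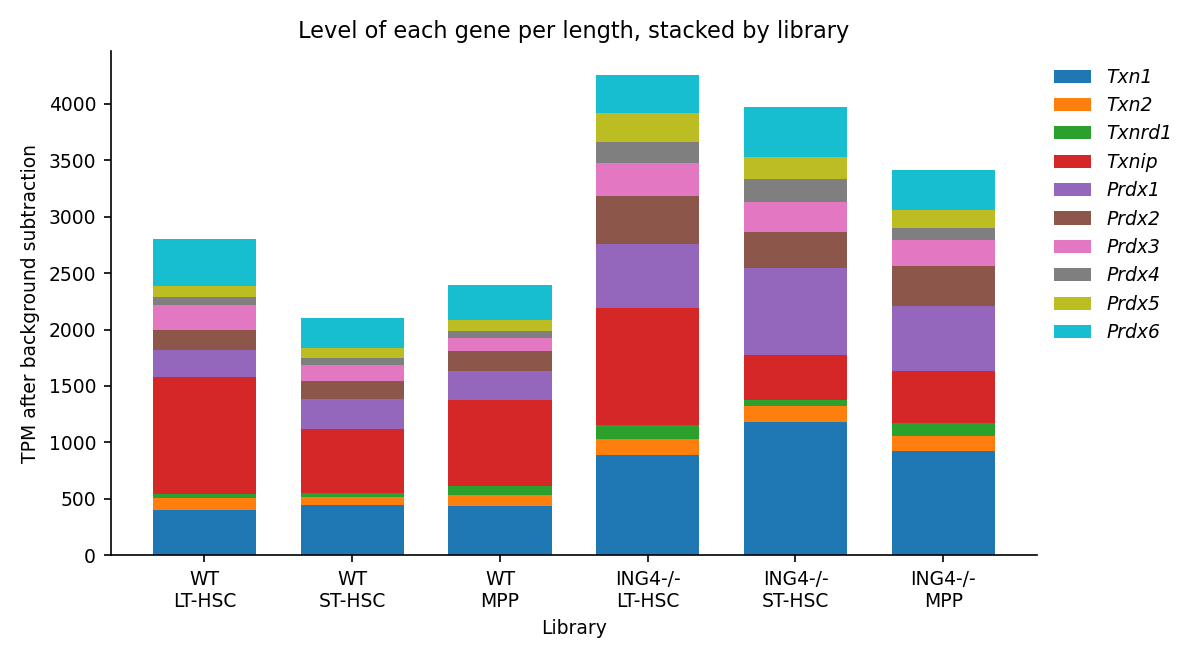
Stacked TPM of the 10 genes in each library after background subtraction. The stacks reach 2103 to 2797 TPM in WT and 3411 to 4256 TPM in ING4-/-, and the red Txnip segment takes a smaller share of each ING4-/- stack.

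Over the 6 libraries, log2 CPM of Txn1 and Prdx1 ran together with a Pearson r of 0.9996. Pairs among the 9 genes other than Txnip had r of 0.66 to 0.9996 (36 pairs), and pairs with Txnip had r of 0.20 to 0.49 (9 pairs). These 6 points share the split into genotypes and the gap in depth and background, so the values are descriptions. Among 9007 protein-coding genes with 10 or more counts in each library, Pycrl, Mpc2 and Cox6c were most like Txn1 (r of 0.9998, 0.9989 and 0.9987). For Txn1, 1055 genes had r over 0.95. For Txnip 38 did, led by Asb6, Camkmt and Aplp2 (0.995, 0.994 and 0.991). Asb6 was at 62.4, 40.8 and 56.0 CPM in WT and at 110.4, 44.5 and 49.9 CPM in ING4-/-, with the same high ING4-/- LT-HSC library as Txnip.

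The wider redox genes were counted over 7 lists beside the same 7.98% of all genes called higher. That share was 5.64% with the background subtracted and 2.02% when the length trend was removed as well. Of 18 other thioredoxin-fold proteins and reductases, 7 rose and none fell in ING4-/-, with a median log2 fold change of 0.86. With the background subtracted 3 were called, and none when the length trend was removed as well. With the counts as deposited the 4 largest were Txndc17 at 2.25 (SE 0.26, adjusted p = 6.6e-04, edgeR), Txnl4a at 1.87, Txndc15 at 1.82 and Txndc5 at 1.41. Background subtraction and length trend removal brought Txndc17 to 0.93 (SE 0.29, adjusted p = 0.0979, edgeR). Txndc17 is a small cytosolic thioredoxin-like reductase and Txndc5 a protein disulfide isomerase of the endoplasmic reticulum. Of 10 thioredoxin clients, 2 rose and none fell (median 0.58), Apex1, a repair nuclease that thioredoxin keeps active as a redox factor, at 1.39 and the methionine sulfoxide reductase Msrb2 at 1.01, and neither was called with the background subtracted. Msrb2 lost its call with population as a block, at 0.97.

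Of 13 genes of the glutathione and glutaredoxin system 6 rose and none fell (median 1.01). Glrx5, a mitochondrial glutaredoxin needed for iron-sulfur clusters, had a log2 fold change of 3.05 (SE 0.67, adjusted p = 0.00476, edgeR), from 9.74 ± 5.90 to 80.6 ± 53.3 CPM (SD, n = 3). Gpx1, the cytosolic glutathione peroxidase, was at 867 ± 249 CPM in WT and 3869 ± 667 CPM in ING4-/-, a log2 fold change of 2.16. Sod1, which makes hydrogen peroxide from superoxide, was at 1.61 and Gpx4, which reduces lipid peroxides, at 1.52. Glrx5 and Gpx1 were called with the background subtracted, and Sod1 and Gpx4 were not. When the length trend was removed as well, no gene of this list was called. Gpx1 was then at 0.76 (SE 0.21, adjusted p = 0.0639, edgeR) and Glrx5 at 1.82 (SE 0.65, adjusted p = 0.133, edgeR).

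Of 15 regulators and targets of Nrf2 and Foxo factors 4 rose and none fell (median 0.24), namely the heme oxygenase Hmox1 at 2.32, Park7 at 1.49, the sestrin Sesn1 at 1.13 and the Nrf2 inhibitor Keap1 at 1.11. Hmox1 had 50, 50 and 47 counts in WT, of which 39.6, 40.1 and 32.0 are what the background alone would give, and its adjusted p was 0.0771 with population as a block (2.20, edgeR). Hmox1 was the only gene of this list called with the background subtracted. The same held when the length trend was removed as well, at 3.14 (SE 0.66, adjusted p = 0.0234, edgeR). Of 9 genes that supply NADPH 4 rose and none fell (median 0.87). They were Taldo1 and Pgd of the pentose phosphate pathway at 1.45 and 1.30, the malic enzyme Me2 at 1.12 and the isocitrate dehydrogenase Idh2 at 1.10. None was called with the background subtracted. When the length trend was removed as well, Pgd alone of this list was called, at 1.12 (SE 0.28, adjusted p = 0.0459, edgeR). In selenoprotein synthesis 2 of 6 rose and none fell (median 0.83), Sepsecs at 1.04 and Sephs2 at 1.02, neither of them with the background subtracted, and Sepsecs had an adjusted p of 0.125 with population as a block (edgeR). At an unadjusted p under 0.05 edgeR likewise found none lower in these 6 lists with the counts as deposited. With the background subtracted 1 gene was then lower in the glutathione list and 1 in the Nrf2 and Foxo list, and under the count minimum 1 was lower in each list but that of NADPH supply.

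Among 8 Txnip regulators and alpha-arrestins, 2 rose and 2 fell by the call rule (median -0.25). Mlx, the partner through which glucose-sensing factors drive Txnip, had a log2 fold change of 1.11 (SE 0.37, adjusted p = 0.0334, edgeR), and the alpha-arrestin Arrdc4, a paralog of Txnip, 1.07 (SE 0.34, adjusted p = 0.0275, edgeR), or 0.99 with population as a block. The 2 genes called lower, Mlxipl and Arrdc5, had 0 counts in all ING4-/- libraries. Their WT counts, 32 to 67 for Mlxipl and 21 to 29 for Arrdc5, stood beside 101 to 127 and 19.3 to 24.2 counts that the background alone would give, so no fold is given for them. With the background subtracted, Arrdc3 was the 1 gene called lower in this list, at -2.23 (SE 0.75, adjusted p = 0.0441, edgeR), and it is named here because of that call. Of the 8 genes 5 were tested there, none of them higher at an unadjusted p under 0.05 and 2 lower.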

How the data were processed

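Gene expression was measured by bulk RNA-seq in 6 libraries, 1 for each of 3 sorted populations of WT and ING4-/- mice, each from a pool of mice. The authors deposited raw counts per gene, with exonic lengths and without normalization. Libraries were made and sequenced by a company on the Illumina HiSeq. The genome build was mm10 per the submitters' processing notes, and the aligner, the counting program and its strand setting are not given in the sources used here. Groups were taken from the sample labels. Identifiers were matched to GENCODE M21, in which 49056 of 49315 were found, 44858 with identical start and end.

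The quasi-likelihood F test of edgeR 4.0.16 under R 4.3.3 was run on the counts with genotype as the only term, after TMM normalization and the filterByExpr filter, and p-values were Benjamini-Hochberg adjusted over all genes tested. A call needed both an adjusted p under 0.05 and a log2 fold change beyond 1 in either direction. Standard errors are the fold change over the square root of F. Populations were contrasted with genotype as a term. Ratios within a library were compared by exact two-sided permutation tests over all 6 libraries, which did not use the pairing by population. Tables were made in Python 3.11.15 with pandas 2.3.3, numpy 2.4.6 and scipy 1.17.1. Scripts were tested on simulated data.

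Background was the count per kb on genes whose symbols begin with Olfr or Vmn, multiplied by exonic length and subtracted. Alternatives were DESeq2's size factors, upper-quartile normalization, DESeq2 1.42.0, no filter, at least 10 counts in every library, population as a replicate block, background subtraction, thinning to 7839326 counts, removal of a length or GC trend (lowess span 0.3, with at least 10 counts in every library) and leaving out each library. Combinations of the count minimum with the block and with background subtraction were chosen after seeing the data. Libraries of a population deviated together from their genotype means (r = 0.143, 0.110 and 0.121 for LT-HSCs, ST-HSCs and MPPs over 9673 genes), so population pairs the libraries. No 2 libraries of a genotype were duplicates (chi-square over its degrees of freedom 14.1 or more). Counts have no molecular identifiers, so intervals cover counting error only, and a count of 0 allows up to 3 counts, or 0.320 to 0.383 CPM in WT and 0.0765 to 0.0843 CPM in ING4-/-.

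The 10 genes and the lists were chosen with earlier results of these data known. Named were the 10 genes, Ing4, from each list up to 4 called genes with the largest fold change, and the 3 genes most like Txn1 and Txnip. Arrdc3 was named after its values were seen.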

Additional observations from a re-analysis of the deposited data

Results flagged for a closer look

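Txnip was picked out because its ratio of genotypes differed between populations. The log2 ratio of ING4-/- to WT was 0.84 in LT-HSCs (95% interval 0.81 to 0.87) and -0.014 in MPPs (-0.048 to 0.020), a gap of 0.853 on the log2 scale. The MPP interval includes 0 and the intervals cover counting error only. With the background subtracted the ratios were 0.065 in LT-HSCs and -0.73 in MPPs. Each value rests on 1 library per genotype, and the difference between LT-HSCs and MPPs was not tested.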

How the results depend on the processing

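The number of genes called between genotypes, 20041, became 1739 with at least 10 counts in every library, 8701 with background subtraction, 1276 and 2131 with that minimum and a length or GC trend removed, and 414 with minimum, background subtraction and length trend removal together. Of the 10 genes, 8 were called, but 5 with the count minimum, 5 with background subtraction, 4 with minimum and length trend removal and 0 with minimum, background subtraction and length trend removal (edgeR, 5 at an unadjusted p under 0.05). With population as a replicate block 18879 genes and 8 of the 10 were called, and with the count minimum added 1718 and 6. Background subtraction with that minimum left 793 and 3. The calls of Ing4, Msrb2, Hmox1, Sepsecs and Arrdc4 were lost under the block and no other named call was. Leaving out 1 library gave 19943 to 22874 genes and 7 to 9 of the 10.

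Txnip was lower in ING4-/- in 7 of 19 alternatives: -0.073 with the count minimum, -0.36 with background subtraction, -0.072 with minimum and length trend removal, -0.56 with background subtraction added, -0.18 with block and minimum, -0.46 with background subtraction and minimum, and -0.049 without the ING4-/- LT-HSC library (range 0.68 to -0.049 with 1 library left out). With minimum, background subtraction and length trend removal Msrb2 was at -0.30, Sephs2 at -0.10 and Sod1 at -0.094. Without 1 library Txnrd1 was at -1.07 to 0.30 in ST-HSCs against LT-HSCs, the latter without the ING4-/- LT-HSC library, and at -0.12 to 1.31 in MPPs against LT-HSCs, the former without the WT LT-HSC library. The number of genes called between MPPs and LT-HSCs was 2 with the count minimum and 1 with background subtraction added, and 0 in every contrast of populations when a library was left out. Without 1 library the difference in the Txnip to Txn1 ratio was -2.11 to -1.22, Txn2 to Txn1 -0.88 to -0.54, Prdx3 to Prdx1 -0.72 to -0.23 and Txnrd1 to Txn1 -0.65 to 0.11, positive without the ING4-/- ST-HSC library. The cause of these changes was not tested. With 1 library per population and genotype, no difference within a population can be tested.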
